A study of Homo sapiens with 6 samples.

Results

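Androgen-responsive genes and markers of the prostate lineage were examined in DU145 cells, a human line of castration-resistant prostate cancer, through the 7 genes KLK2, KLK3, TMPRSS2, FOXA1, FKBP5, STEAP1 and FOLH1. They were taken by name, and all 7 were found among the 27381 genes of the deposited expression table. RNA had been sequenced from 6 libraries, 2 each of cells given Cas9 and a scrambled sgRNA (Scr), of CD24 KO cells and of RCC2 KO cells. All were grown without any hormone treatment that the labels name. The methods describe transfection with a plasmid carrying Cas9, GFP and the sgRNA, sorting of GFP-positive cells and expansion of clones, with 2 clones established for each knockout in DU145 cells. Which clones were sequenced is not given in the sources used here, so a knockout and the clone that carries it cannot be told apart.

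The table holds 1 value per gene and condition in FPKM, the fragments mapped to a gene, scaled to transcript length and to how many fragments a library had mapped. The RCC2 KO column may stand for 1 library or for both, since its name is also the label of a single library. Without values for each library no difference has an error or a test, and a gene at least 2-fold higher or lower is given in place of a call. The counts behind the values, and with them the depth, are unknown. The 3 columns sum to between 388764 and 451272 FPKM. As a check of the labels, CD24 was at 93.2, 309 and 214 FPKM and RCC2 at 37.8, 14.2 and 41.8 FPKM (Scr, CD24 KO, RCC2 KO), so that neither gene was lowest in the column of its own knockout. Each direction below therefore holds for the columns as they are labelled. A 0 is given as a listing rather than as absence of the RNA, because the large mitochondrial ribosomal RNA is also listed at 0 in the CD24 KO column.

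Androgens such as testosterone and dihydrotestosterone act through DNA elements near their target genes, and in luminal cells of the prostate they drive the secretory genes of the gland. FOXA1 is a forkhead factor that opens chromatin at sites of steroid signaling. KLK2 and KLK3 (prostate-specific antigen) are secreted kallikrein proteases, TMPRSS2 is a serine protease of the cell membrane, and FKBP5 is a cochaperone of HSP90 that acts in steroid receptor complexes. STEAP1 and FOLH1 (prostate-specific membrane antigen) are cell surface proteins used as targets for imaging and therapy of prostate cancer. DU145 is known as a line that grows independently of androgens.

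The promoters of the secretory genes carry the DNA elements by which this pathway is known. Promoter sequences, from 250 bases before to 50 bases after the start of transcription, were found for 5 of the 7 genes in a RefSeq table of the GRCh38.p14 build. They were searched for the androgen response element, AGAACA and TGTTCT with 3 bases of any kind between them, whose 12 fixed letters read the same on both strands, and the stretch with the most matching letters is in capitals. KLK3 and KLK2, which were listed at 0, are shown beside the pair of starts of FKBP5, the most abundant of the 7 genes.
KLK3 (chr19:50854665-50854964, plus strand): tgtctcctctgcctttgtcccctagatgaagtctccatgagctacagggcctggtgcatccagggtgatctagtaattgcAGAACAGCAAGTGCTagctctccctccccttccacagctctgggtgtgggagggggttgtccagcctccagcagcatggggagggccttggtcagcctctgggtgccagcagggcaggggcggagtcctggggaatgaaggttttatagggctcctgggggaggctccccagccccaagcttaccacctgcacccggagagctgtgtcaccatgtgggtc
KLK2 (chr19:50873189-50873488, plus strand): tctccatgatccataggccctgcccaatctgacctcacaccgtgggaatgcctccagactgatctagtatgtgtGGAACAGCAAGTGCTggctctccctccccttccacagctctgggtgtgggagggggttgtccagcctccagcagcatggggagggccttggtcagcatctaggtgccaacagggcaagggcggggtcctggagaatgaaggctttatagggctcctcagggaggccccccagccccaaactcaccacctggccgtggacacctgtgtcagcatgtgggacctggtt
FKBP5, upstream start (chr6:35728534-35728833, minus strand): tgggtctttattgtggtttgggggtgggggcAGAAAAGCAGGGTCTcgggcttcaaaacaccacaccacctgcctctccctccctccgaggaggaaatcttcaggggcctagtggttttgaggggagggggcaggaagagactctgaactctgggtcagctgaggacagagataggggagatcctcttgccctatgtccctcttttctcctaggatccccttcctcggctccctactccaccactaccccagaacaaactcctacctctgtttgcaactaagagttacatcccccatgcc
FKBP5, downstream start (chr6:35688866-35689165, minus strand): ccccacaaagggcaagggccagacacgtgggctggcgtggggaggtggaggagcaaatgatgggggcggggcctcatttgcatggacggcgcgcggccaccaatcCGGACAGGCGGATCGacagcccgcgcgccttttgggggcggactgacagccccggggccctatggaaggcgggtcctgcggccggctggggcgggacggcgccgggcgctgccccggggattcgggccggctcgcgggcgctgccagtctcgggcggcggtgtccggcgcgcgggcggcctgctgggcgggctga

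In KLK3, 10 of the 12 fixed letters were matched, at a stretch that begins 170 bases before the start. In KLK2 the best stretch matched 9 letters and begins 176 bases before the start. The 2 promoters are copies of each other, with 79.3% identical positions in a global alignment and a run of 80 identical bases. Among 34796 promoters of this length, 1.42% held a stretch with at least 10 matching letters and 10.8% one with at least 9. The upstream start of FKBP5 also reached 9 letters, whereas its downstream start and FOXA1 reached 7 and STEAP1 reached 6. A match describes the letters only, and the best-known elements of FKBP5 lie within its introns, outside these windows. KLK2 and KLK3 each held a TATA box (TATAAA, searched on both strands), found in 11.6% of the promoters. The 2 kallikrein promoters held 3 and 2 CpG dinucleotides, against 34 in FOXA1, 27 in STEAP1 and 38 at the downstream start of FKBP5, with 3 at its upstream start and a median of 14 over all promoters.

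Of the 7 genes, 4 were off in DU145 cells, meaning under 1 FPKM in every column, and the other 3 were expressed in every column. KLK2, KLK3 and FOLH1 were listed at 0 in all 3 columns. TMPRSS2 was at 0.0437, 0.110 and 0.00992 FPKM (Scr, CD24 KO, RCC2 KO), all far under 1 FPKM. Only 5.73%, 11.5% and 1.03% of the genes above 0 in these columns had a lower value, so the order of the 3 TMPRSS2 values was not read. Over the whole table, 53.2% of genes were under 1 FPKM in every column and 31.9% were listed at 0 in every column. Among 18891 genes with a protein-coding symbol these shares were 38.1% and 17.7%, a background chosen after the data had been seen. With 4 of 7 genes off, the set thus lay near the share of the whole table.

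FKBP5 was the most abundant of the 7 genes, at 67.6, 63.3 and 70.2 FPKM (Scr, CD24 KO, RCC2 KO). It ranked between 1140 and 1241 from the top of the columns. FOXA1 was at 25.4, 27.4 and 26.9 FPKM (Scr, CD24 KO, RCC2 KO). STEAP1 was at 15.7, 18.7 and 20.7 FPKM (Scr, CD24 KO, RCC2 KO). The order FKBP5, FOXA1, STEAP1 was the same in every column and the values of the 3 genes did not overlap across columns, although columns are conditions and not replicates. RNA of the pioneer factor, the cochaperone and STEAP1 was thus present, while the kallikreins, TMPRSS2 and FOLH1 did not reach 1 FPKM. In such bulk samples, fewer cells with an RNA and less of it per cell cannot be told apart.

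**Figure D1:**
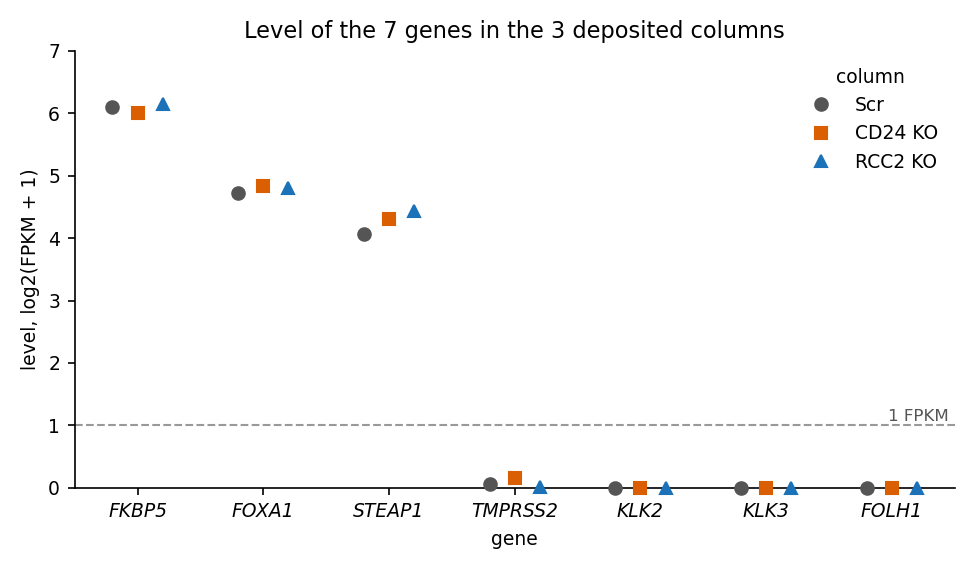
Level of each of the 7 genes (x axis) as log2(FPKM + 1) (y axis) in the columns of Scr cells and of the 2 knockouts, 1 point per column with no error bars because each column is a single value. FKBP5, FOXA1 and STEAP1 lie above the dashed line at 1 FPKM in every column, and TMPRSS2, KLK2, KLK3 and FOLH1 lie below it in every column.

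The table's coordinates name no build and were read as hg19. KLK3 (19: 51358171 to 51364020) and KLK2 (19: 51376689 to 51383823) are neighbours on chromosome 19, TMPRSS2 lies on chromosome 21 (42836478 to 42880085), FOXA1 on chromosome 14 (38058757 to 38064325) and FOLH1 on chromosome 11 (49168187 to 49230222). FKBP5 on chromosome 6 (35541362 to 35704724) shares its position with LOC285847 and MIR5690. STEAP1 on chromosome 7 was given a merged position (89511667 to 89840949) together with DPY19L2P4 and STEAP2-AS1, and 13.6% of the 75-base stretches of its GENCODE transcripts also occur in STEAP1B, so its fragments could have been divided among these genes. FOLH1 shares 18.1% of such stretches with its copy FOLH1B, but both genes were listed at 0. KLK2 and KLK3 share none.

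The 3 columns were then compared for these genes, and both knockouts share the same Scr column. Genes with at least 1 FPKM in at least 1 column were compared, 12822 in all, as log2(FPKM + 1), a scale that understates the differences of low genes. None of the 3 expressed members was at least 2-fold higher or lower in any of the 3 comparisons. Of all genes compared, 5.69% passed that minimum in CD24 KO against Scr, 1.2% in RCC2 KO against Scr and 8.31% in RCC2 KO against CD24 KO, so a count of 0 among 3 genes lies near the background. None passed 1.5-fold either. TMPRSS2, KLK2, KLK3 and FOLH1 were below the minimum level and were not compared.

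For FOXA1 the log2 change against Scr was 0.11 (CD24 KO) and 0.08 (RCC2 KO), with a difference of -0.03 between the knockouts. FKBP5 had log2 changes of -0.09 (CD24 KO) and 0.05 (RCC2 KO). Its highest column was 1.11 times its lowest, and that of FOXA1 was 1.08 times. STEAP1 showed the widest range of the 3 genes, with 1.31 times as much in RCC2 KO as in Scr. Its log2 changes were 0.24 (CD24 KO) and 0.37 (RCC2 KO), both against the same Scr value.

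In the absence of replicates, each gene was set beside the genes whose mean FPKM lay within 1.5 times its own, a choice made after the data had been seen. In CD24 KO against Scr, 78.8% of 2394 genes at the level of FOXA1 and 85.8% of 1266 genes at that of FKBP5 had a larger change in either direction. In RCC2 KO against Scr these shares were 66.3% and 75.8%. Most genes of their level thus differed by more than FOXA1 and FKBP5 did. For STEAP1 the share was 55.5% in CD24 KO but 10.7% in RCC2 KO, where its log2 change of 0.37 lay just above 0.36, the value that 95% of 2756 genes of like level did not exceed. The direction for FKBP5 in CD24 KO depended on the scaling, since its log2 change was 0.12 once the columns were set to the same sum.

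**Figure D2:**
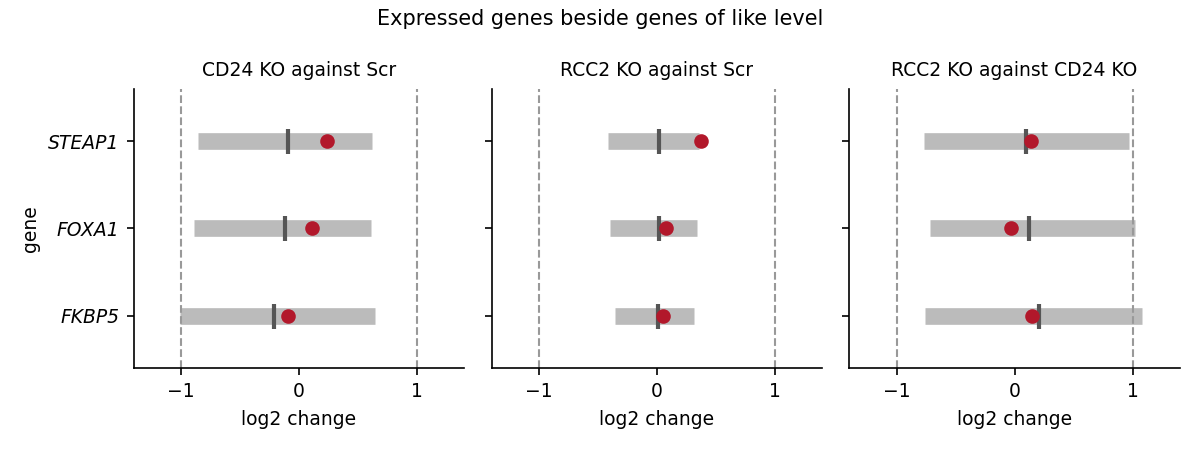
Log2 change (x axis) of FKBP5, FOXA1 and STEAP1 (y axis) in the 3 comparisons, 1 panel each; the red point is the gene, the grey bar runs from the 5th to the 95th percentile of genes of like level and the dark tick is their median. Every red point lies between the dashed lines at 2-fold, and only STEAP1 in RCC2 KO against Scr reaches the end of its bar.

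The other members of the same families were mostly silent where the listed gene was silent. All 15 kallikrein genes (KLK1 to KLK15) were under 1 FPKM in every column, and 6 of them were listed at 0 in all columns. KLK4, another prostate kallikrein, had the highest mean, with values at 0.915, 0.123 and 0.341 FPKM (Scr, CD24 KO, RCC2 KO). Some genes around the cluster were expressed, though most were not. Within 500 kb of KLK3 lay 51 genes, the other kallikreins among them, and 20 of the 51 were listed at 0 in every column. Only 12 of the 51 reached 1 FPKM in a column and were compared. Over the whole table, 53.2% of genes stayed under 1 FPKM in every column. Among the 12 was the aspartic protease NAPSA, at 9.78, 19.9 and 15.0 FPKM (Scr, CD24 KO, RCC2 KO). The nuclear receptor NR1H2 was at 29.3, 28.1 and 25.3 FPKM in the same order. On the log2(FPKM + 1) scale NAPSA changed by 0.95 in CD24 KO against Scr, just under 2-fold. On that scale SPIB, an ETS factor of blood cells, was the only one of these 12 genes past 2-fold. It was at 1.85 FPKM in CD24 KO against 0.182 FPKM in Scr, where 5.69% of all genes compared passed that minimum.

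Of 14 membrane serine proteases of the TMPRSS2 kind, 12 were under 1 FPKM in every column. ST14 (matriptase), which cleaves substrates at the surface of epithelial cells, was expressed at 6.73, 4.83 and 8.07 FPKM (Scr, CD24 KO, RCC2 KO). TMPRSS2 itself is known for fusions that place ETS genes under its promoter. Of 5 such partner genes, a list written after the table had arrived, ERG did not exceed 0.0354 FPKM and FLI1 was listed at 0 throughout. ETV1 was listed at 0 in Scr and RCC2 KO and was at 1.28 FPKM in CD24 KO. ETV5 was at 23.3, 26.4 and 21.0 FPKM and ETV4 at 12.9, 8.49 and 8.16 FPKM in the same order. The genes compared within 500 kb of TMPRSS2 were BACE2, MX1, PRDM15 and C2CD2, with a median log2 change of -0.74 in CD24 KO, and BACE2 was at 17.8, 8.52 and 21.1 FPKM.

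All 5 members of the STEAP family of metalloreductases were expressed in at least 1 column. STEAP2, which adjoins STEAP1 on chromosome 7, was at 6.87, 5.18 and 5.70 FPKM (Scr, CD24 KO, RCC2 KO), below Scr in both knockouts where STEAP1 was above it. STEAP4 was at 0.818, 1.90 and 0.426 FPKM. It was the only family member at least 2-fold apart between the knockouts, where 8.31% of all genes compared passed that minimum. FOXA1 was the single FOXA factor above 1 FPKM, since FOXA3 reached 0.815 FPKM and FOXA2, a factor of endoderm and of neuroendocrine tumors, 0.0640 FPKM at most. In the FKBP family of prolyl isomerases, 13 of 15 genes were compared and FKBP5 was exceeded by FKBP2, FKBP8, FKBP3 and FKBP1A in every column. FKBP4, which with FKBP5 competes for steroid receptor complexes, was at 47.1, 27.8 and 45.8 FPKM (Scr, CD24 KO, RCC2 KO). The ratio of the pair was thus highest in CD24 KO, where FKBP4 had its lowest value.

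Genes with patterns most like those of the 3 expressed members were found by the Euclidean distance of the 3 log2 values, a measure that rests on 3 columns only. TBC1D14, RALB and SCNM1 lay nearest to FOXA1, TMEM245, CIZ1 and MAP4K5 to FKBP5, and ARMCX6, TMEM9B and EGLN2 to STEAP1, with distances from 0.026 to 0.077. Within a distance of 0.1 there were 14, 7 and 5 genes, in that order.

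Prostate luminal and lineage genes were described from a list of 20 genes, 6 of which were listed at 0 in every column. These were MSMB, a secretory protein of the gland, HOXB13, a homeobox factor of the posterior prostate, the long noncoding RNA PCA3, KLK11, NPY and RLN1. A further 5 genes, KLK4, SPDEF, ACPP, TGM4 and TRPM8, stayed under 1 FPKM. Of the 20 genes, 11 were thus under 1 FPKM in every column, near the 53.2% of the whole table. Among genes with a protein-coding symbol that share was 38.1%. The other 9 genes of the list were expressed. Of all genes compared, 2.67% were at least 2-fold higher in CD24 KO and 3.03% at least 2-fold lower. In CD24 KO 7 of the 9 genes were higher than in Scr and 2 lower. Their median log2 change was 0.54, against -0.03 over all genes compared. NCAPD3, a condensin subunit, was the only one of the 9 at least 2-fold lower in CD24 KO, at 24.3, 10.3 and 22.6 FPKM. AMACR, an enzyme of branched fatty acid oxidation used as a marker of prostate cancer, was at 10.6, 17.3 and 9.05 FPKM. In RCC2 KO against Scr no gene of the 9 passed 2-fold, where 0.406% of all genes compared were higher and 0.796% lower.

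**Figure D3:**
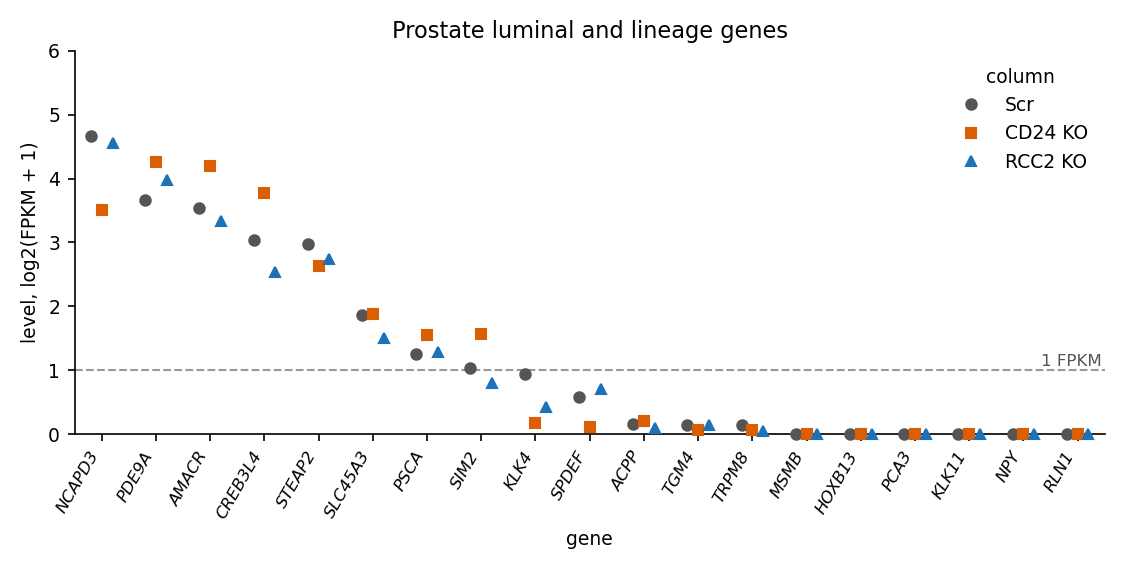
Level of 19 prostate luminal and lineage genes (x axis, ordered by mean) as log2(FPKM + 1) (y axis) in the 3 columns, 1 point per column without error bars. Of the genes that reach the dashed line at 1 FPKM, NCAPD3 and STEAP2 stand lowest in CD24 KO. PDE9A, AMACR, CREB3L4, SLC45A3, PSCA and SIM2 stand highest there, and 11 genes stay under the line in every column.

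The labelled cell type was checked against its markers. All 10 epithelial markers were expressed, among them the luminal keratins KRT8 at 336, 149 and 348 FPKM and KRT18 at 293, 141 and 305 FPKM (Scr, CD24 KO, RCC2 KO). Against Scr, 7 of the 10 were higher in CD24 KO and 3 lower. KRT8 and KRT18 were at least 2-fold lower, and the cadherin CDH3 (45.1 and 111 FPKM) and the integrin ITGB4 (6.61 and 14.6 FPKM) at least 2-fold higher. Of 8 basal markers 4 were expressed, the integrin ITGA6 at 42.8, 39.0 and 36.3 FPKM, the cytolinker DST at 25.2, 29.8 and 31.3 FPKM, and NGFR and KRT15 at 1.60 FPKM or less. The basal keratins KRT5, KRT14 and KRT17 were listed at 0 in every column, and TP63 did not exceed 0.00919 FPKM. Of 18 neuroendocrine markers 13 were under 1 FPKM in every column, with CHGA at 0.0243 FPKM at most and CHGB, INSM1 and NEUROD1 listed at 0, and 5 were expressed, among them the histone methyltransferase EZH2 at 34.8, 16.0 and 39.0 FPKM. All 9 immune and endothelial markers and 9 of 10 fibroblast and smooth muscle markers were under 1 FPKM in every column, with sums of 0.592 to 1.38 FPKM and 2.06 to 3.53 FPKM. The columns thus hold RNA of epithelial cells with luminal keratins and some basal markers.

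Some of the other steroid receptors, though not all, bind like DNA elements and can maintain some androgen-responsive genes. The glucocorticoid receptor NR3C1 was at 34.5, 37.8 and 35.6 FPKM (Scr, CD24 KO, RCC2 KO). The mineralocorticoid, progesterone and estrogen receptors (NR3C2, PGR, ESR1 and ESR2) all stayed under 1 FPKM, with NR3C2 highest at 0.328 FPKM. Of 14 targets of the glucocorticoid receptor 13 were compared, and in CD24 KO 2 were at least 2-fold higher and 2 lower, beside 2.67% and 3.03% of all genes compared. The 2 higher ones were TSC22D3 (GILZ), at 4.15 FPKM in Scr and 10.5 FPKM in CD24 KO, and the kinase SGK1, at 3.22 and 8.15 FPKM. MT2A, a metallothionein, was at 1553 FPKM in Scr and 198 FPKM in CD24 KO, and ANGPTL4, which is also induced by hypoxia, at 38.6 and 3.33 FPKM. In RCC2 KO the factor KLF9 was the only target at least 2-fold apart from Scr, at 2.25 against 10.2 FPKM, where 1.2% of all genes compared passed that minimum. FKBP5, which belongs to this list as well, was among those that stayed within 2-fold in each comparison. Whether the glucocorticoid receptor maintains FKBP5 in these cells was not tested.

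Coregulators and chaperones of steroid receptors were mostly expressed. Of 24 genes 23 were expressed, and GRHL2, an epithelial transcription factor, was the exception at 0.0226 FPKM or less. In CD24 KO 19 of the 23 genes were lower than in Scr and 4 higher, with a median log2 change of -0.36 against -0.03 over all genes compared. Genes at the level of FOXA1 and of FKBP5 had medians of -0.11 and -0.21 in this comparison. The lower values lay mainly among the chaperones, with HSP90AB1 at 1093 FPKM in Scr and 601 FPKM in CD24 KO and PTGES3 (p23) at 215 and 124 FPKM. HSPA8, the constitutive HSP70, was the only gene of the list past 2-fold in CD24 KO, where 3.03% of all genes compared were that much lower, at 1764, 278 and 1864 FPKM (Scr, CD24 KO, RCC2 KO). GATA2, a zinc finger factor, was at 9.10, 7.64 and 8.93 FPKM. In RCC2 KO the median log2 change of the list was 0.00, with 12 genes higher and 11 lower.

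Genes of androgen synthesis and inactivation were partly expressed. HSD3B1, HSD3B2, UGT2B15 and UGT2B17 were listed at 0 in every column, and CYP17A1 did not exceed 0.0524 FPKM. SRD5A1, the 5-alpha-reductase that turns testosterone into dihydrotestosterone, was at 12.2, 13.5 and 13.8 FPKM (Scr, CD24 KO, RCC2 KO). AKR1C3, a reductase that forms testosterone from androstenedione, was at 7.95, 43.9 and 6.79 FPKM (Scr, CD24 KO, RCC2 KO). AKR1C1 was at 1.14, 17.0 and 1.76 FPKM and AKR1C2 at 0.584, 4.12 and 0.675 FPKM. These 3 genes were the only ones of 9 compared that were at least 2-fold higher in CD24 KO, and none of the 9 was lower by that much, beside 2.67% and 3.03% of all genes compared. AKR1C1 and AKR1C2 are near copies, with 21.7% of the 75-base stretches of AKR1C1 found in AKR1C2, so the division between them is uncertain. AKR1C3 shares 1.44% of its stretches with AKR1C1 and 2.49% with AKR1C2.

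The wider program was described with the hallmark androgen response set, written from memory as 101 genes. Of them 89 were compared and 12, among them KLK2, KLK3, TMPRSS2 and the transcription factor MAF, stayed under 1 FPKM in every column. The median log2 change was 0.04 in CD24 KO against Scr, -0.03 in RCC2 KO against Scr and -0.18 in RCC2 KO against CD24 KO, where all genes compared had medians of -0.03, -0.0036 and 0.02. The list as a whole thus lay near the rest of the table against Scr. In CD24 KO 6 of the 89 genes were at least 2-fold higher and 2 at least 2-fold lower, where these shares over all genes compared were 2.67% and 3.03%. Among the higher ones were SAT1, which acetylates polyamines, at 168 FPKM in Scr and 493 FPKM in CD24 KO, and TSC22D1 at 23.0 and 58.5 FPKM. ZBTB10, SCD and SGK1 were also higher, and the 2 lower ones were SLC26A2, a sulfate transporter with 10.4 FPKM in CD24 KO and a log2 change of -1.18, and KRT8.

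In RCC2 KO no gene of the list was at least 2-fold higher than in Scr and 5 of the 89 were at least 2-fold lower, where these shares over all genes compared were 0.406% and 0.796%. These were INSIG1, a sensor of sterols, at 29.2 FPKM in Scr and 7.83 FPKM in RCC2 KO, the stress gene NDRG1 at 156 and 69.1 FPKM, the selenium carrier SELENOP at 21.9 and 9.53 FPKM, SCD at 208 and 97.9 FPKM and HMGCS1 at 42.5 and 20.3 FPKM. Of these 5 genes INSIG1, SCD and HMGCS1 serve lipid synthesis and are also targets of the sterol-regulated factors. The 9 lipid synthesis genes of the list had median log2 changes against Scr of 0.53 (CD24 KO) and -0.76 (RCC2 KO). Without them the median of the other 80 genes was -0.02 in both comparisons with Scr. Between the knockouts, 13 of the 89 genes were at least 2-fold lower in RCC2 KO and 5 higher, where 4.3% of all genes compared were lower and 4.02% higher. Of the 13 genes, 5 were lipid synthesis genes. Among the other 80 genes of the list, 8 were at least 2-fold lower in RCC2 KO than in CD24 KO and 5 higher. Their median log2 change was -0.11 in this comparison, against 0.02 over all genes compared.

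**Figure D4:**
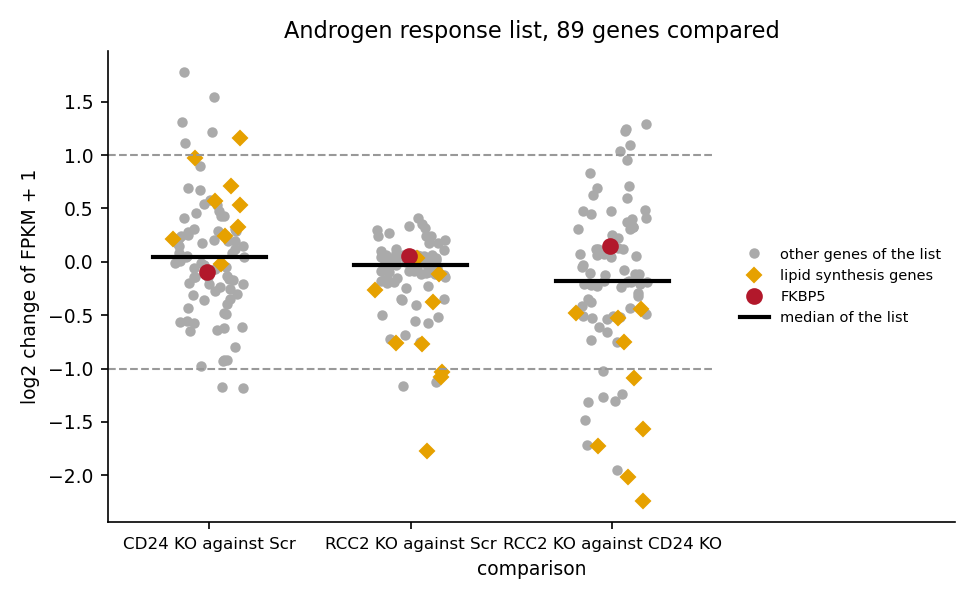
Log2 change of FPKM + 1 (y axis) for the 89 compared genes of the androgen response list in the 3 comparisons (x axis), 1 point per gene, with black lines at the medians of 0.04, -0.03 and -0.18 and dashed lines at 2-fold. Lipid synthesis genes (diamonds) lie mostly above 0 in CD24 KO and below 0 in RCC2 KO against Scr, and FKBP5 (red) lies near 0 in each comparison.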

How the data were processed

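RNA sequencing of 6 DU145 libraries was used, 2 per condition. The authors deposited 1 table of FPKM values with 1 column per condition and no value for each library. Per the labels, HISAT, StringTie and Cufflinks are among the tools of the submitters' processing notes, and neither their roles nor a genome build is given in the sources used here. The methods name a stranded mRNA kit and paired-end sequencing, and the labels an RNA kit without mention of strand. No columns of other samples were present (0 columns).

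The members, gene lists and tests were chosen with earlier results of these data known. The lists were written from memory, and the ETS partners were added after the table had been opened. Some genes are not reported here. Genes with at least 1 FPKM in at least 1 column were compared as differences of log2(FPKM + 1), with a 2-fold minimum. Lists were given by counts and medians, without set tests. The genes named were the 7 members, and from each list up to 6 genes past 2-fold whose higher value was at least 1 FPKM and up to 3 of the highest and lowest levels, along with genes within 500 kb of a member and the 3 nearest patterns. Not every gene under this rule is given, and further genes of the lists were chosen for the text after their values were seen. PPAP2A and SEPP1 were matched to PLPP1 and SELENOP through RefSeq synonyms. Of the 7 members' positions, 5 did not overlap those of GENCODE 29 on GRCh38, so the table's positions were read as hg19. Promoters came from RefSeq (GRCh38.p14), shared 75-base stretches from GENCODE 29 transcripts. Depth is unknown, so no counting error could be given. The calculations were tested on tables with known folds. Python 3.11.15, NumPy 2.4.6, pandas 2.3.3, Biopython 1.88 and matplotlib 3.10.9 were used.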

Additional observations from a re-analysis of the deposited data

How the results depend on the processing

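No paired analysis was possible because the table holds 1 value per condition, and for the same reason no replicate could be left out. Alternatives were pseudocounts of 0.1 and 5, no minimum level, at least 1 FPKM in every column, removal of genes listed at 0, columns scaled to the same sum, median centring, quantile normalization, a 1.5-fold minimum, other levels for calling a gene off (0.1, 0.5 and 5 FPKM) and the androgen response list without its lipid synthesis genes. The number of members off was 4 at the other levels and under equal sums, and 3 at 0.1 FPKM, because TMPRSS2 reached 0.110 FPKM, and the number past the fold minimum was 0 in each comparison throughout. Of 72 recomputed log2 changes of FOXA1, FKBP5 and STEAP1, none passed 2-fold and the largest was 0.44 in size. The 72 include settings that only choose which genes are kept and so cannot change the value of an expressed gene. These were no minimum level, at least 1 FPKM in every column and removal of genes listed at 0. Sums scaled to be equal moved the median of all genes from -0.03 to 0.15 in CD24 KO against Scr and from 0.02 to -0.15 in RCC2 KO against CD24 KO, and the median of the androgen response list to 0.22 and -0.36. The share of all genes compared that were higher went from 47.0% to 63.3% and from 51.6% to 37.5% in these 2 comparisons. The sign of FKBP5 in CD24 KO against Scr and in RCC2 KO against CD24 KO changed under equal sums and quantile normalization, and that of STEAP1 in RCC2 KO against CD24 KO under equal sums.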
